A study of Rattus norvegicus with 6 samples.

Results

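The superoxide dismutases, catalase, glutathione peroxidases and peroxiredoxins described here are 8 enzymes that remove superoxide and hydrogen peroxide: Sod1, Sod2, Sod3, Cat, Gpx1, Gpx3, Prdx1 and Prdx6. They were chosen by name from the probe annotation of whole rat genome arrays, and all 8 were found, with 10 probes among the 41012 measured and 8 of the 24985 features tested. Sod1 and Gpx1 had 2 probes each and the others 1. Each of the 10 probes was well above background, and none was saturated, on all 23 arrays read.

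The study asked how the lung responds to inhaled C60 fullerene, a cage-shaped carbon molecule, with ultrafine nickel oxide (NiO) as its positive control. All groups were male Wistar rats 9 weeks old when exposure began, kept in whole-body chambers for 6 hours a day on 5 days a week over 4 weeks, with no other treatment or genetic change named. The groups were NiO, C60 and clean-air control rats at 3 days after the last exposure (4, 2 and 3 arrays used) and the same groups at 33 days, called 1 month here (4 arrays each). Total RNA of the homogenised right lung, perfused with saline, was hybridised to 1-colour arrays, and 1 array was taken to stand for 1 rat, which the labels do not state. The design gives 4 right lungs for each group, while 3 control arrays were read at 3 days and the label counts 2 of the 4 C60 arrays read at that time. The samples are whole tissue, so more cells of a type and more RNA per cell cannot be told apart in any value below.

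Values are log2 of the processed signal minus the 75th percentile of the same array, so that a negative value lies under that percentile. A difference was called at a Benjamini-Hochberg adjusted p under 0.05 over all features in a limma fit of all 6 groups, and its standard error is given as SE. The level of one probe cannot be set against the level of another. All 8 markers of lung tissue that were listed (surfactant and epithelial genes) were well above background in every group. Each slide held 1 group and each time was scanned on 1 day, so slide cannot be told apart from group, nor scan day from time. The share of spots well above background ran from 57.4 to 78.3 percent over the arrays. It was lowest on the 2 C60 arrays used at 3 days (57.4 and 60.7 percent, against 78.1 and 76.5 percent on the 2 left out). These 2 also had the highest median signal of negative controls, 144 and 54, against 24.4 to 36.8 on the other arrays used, and every C60 value at 3 days rests on them. On the 1-month control slide, arrays 3 and 4 reached 78.3 and 77.1 percent, against 71.3 and 73.6 percent on arrays 1 and 2. The lowest correlation between 2 arrays of a group was 0.946, among the NiO arrays at 3 days, and the next lowest 0.962, among the 1-month controls. Where leaving out arrays of either split changed a call, the value without them is given.

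Superoxide forms when oxygen gains a stray electron, in mitochondria or at the NADPH oxidases of phagocytes. Superoxide dismutases turn it into hydrogen peroxide: Sod1 in the cytosol with copper and zinc, Sod2 in the mitochondrial matrix with manganese, and Sod3 outside cells, bound to matrix of vessel walls and airways. Catalase destroys hydrogen peroxide in peroxisomes, glutathione peroxidases do so with glutathione, and peroxiredoxins with a reactive cysteine that thioredoxin or, for Prdx6, glutathione restores. In cultured cells and in mice, Sod2 is a known target of the inflammatory factor NF-kB and Prdx1 of the oxidant-sensing factor Nrf2.

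Upstream sequences are shown for Sod2 and Prdx1, because these 2 genes rose most after NiO at 3 days. RefSeq promoters of the rat build GRCr8 were matched by symbol for 6 of the 8 genes (all but Sod3 and Prdx6), and the 250 bases before the start of transcription were searched on both strands. Each is written 5′ to 3′ in the direction of its gene, and capitals mark matches to the antioxidant response element core (TGACNNNGC), the GC box (GGGCGG) or the TATA box (TATAAA). The Sod2 sequence is chr1:50050169-50050418, minus strand, and the Prdx1 sequence is chr5:135383656-135383905, plus strand.
Sod2: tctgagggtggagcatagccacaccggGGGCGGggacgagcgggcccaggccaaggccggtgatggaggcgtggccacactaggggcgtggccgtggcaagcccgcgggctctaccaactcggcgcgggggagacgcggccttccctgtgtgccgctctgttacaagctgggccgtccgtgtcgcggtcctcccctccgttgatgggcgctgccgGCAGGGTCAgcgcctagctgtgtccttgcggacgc
Prdx1: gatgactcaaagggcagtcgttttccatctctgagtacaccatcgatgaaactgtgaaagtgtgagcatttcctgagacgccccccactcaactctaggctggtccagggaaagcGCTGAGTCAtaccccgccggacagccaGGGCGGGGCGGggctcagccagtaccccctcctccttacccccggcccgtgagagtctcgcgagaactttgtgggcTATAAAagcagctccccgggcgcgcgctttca
The antioxidant response element core, to which Nrf2 binds with a small Maf protein, was found in these 2 of the 6 promoters, on the minus strand of each as written here: counted from the start of transcription, its first base stood at position -35 in Sod2 and at -135 in Prdx1. Among 33469 rat promoters, 10.1 percent hold that core in a window of this length. A GC box, bound by Sp1, was found in 5 of the 6 (Sod1, Sod2, Gpx1, Gpx3 and Prdx1) and in 30.5 percent of all promoters. In Prdx1, 2 overlapping GC boxes stood together. A TATA box was found in Sod1 and Prdx1 (12.9 percent of all promoters), and an NF-kB site in Gpx1 alone of the 6 (6.33 percent). These are matches of letters only, and a site outside the window would not be seen.

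At 3 days after NiO, 4 of the 8 genes rose against control (Sod1, Sod2, Cat and Prdx1) and none fell, in a comparison in which 19.0 percent of all features were called. NiO and control arrays did not overlap for 4 of the 8 genes, beside 23.1 percent of all features. The mitochondrial dismutase Sod2 moved most. Its values were -0.53, -0.53, -0.26 and -0.33 on the NiO arrays, against -1.64, -1.57 and -1.42 on the control arrays. All 4 NiO lungs lay above all 3 control lungs, with a gap wider than the range of either group. The log2 fold was 1.13 (SE 0.15, 95% interval 0.82 to 1.44), a 2.19-fold rise (adjusted p = 7.36e-05). It was called in all 16 other settings tried, with log2 folds of 0.96 to 1.19.

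Prdx1, the abundant cytosolic peroxiredoxin, had values of 4.98, 5.77, 5.81 and 5.38 on the NiO arrays at 3 days, against 4.75, 4.86 and 4.81 on the control arrays. The groups did not overlap, but NiO array 1 lay much closer to the controls than the other 3 NiO arrays did. The difference was 0.68 (SE 0.16, adjusted p = 0.00847). Without NiO arrays 2 and 3 the log2 fold was 0.37 and not called (adjusted p = 0.14), and a fit of only the groups compared also lost the call (adjusted p = 0.149). The array also carries LOC683813, annotated as similar to Prdx1, whose 2 probes had log2 folds of 0.72 (adjusted p = 0.00463) and 0.45 (adjusted p = 0.0669). Signal of Prdx1 and of this copy may not be separable.

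Catalase (Cat) had values of 1.66, 2.11, 1.81 and 1.71 on the NiO arrays at 3 days, against 1.48, 1.31 and 1.35 on the control arrays. The groups did not overlap, and the lowest NiO value lay just above the highest control value. The rise of 0.44 (SE 0.14, adjusted p = 0.0318) was called in 8 of 16 other settings. It was not called without any 1 of the 3 control arrays (adjusted p = 0.0599, 0.096 and 0.0924 without arrays 1, 2 and 3) or without NiO array 2 (0.35, adjusted p = 0.104) or 3 (0.45, adjusted p = 0.0664), and without both of these NiO arrays it was 0.31 (adjusted p = 0.272). In the authors' deposited table the Cat ratio was 0.27 on the log2 scale. Cat was the peroxisomal gene of the 8. Of 33 other peroxisome genes measured, 2 rose and 0 fell at 3 days after NiO, fewer than the 19.0 percent called among all features. Their median log2 fold was 0.07 beside 0.04 over all features. Scp2, a sterol carrier and thiolase, was among the 2 that rose (0.81, adjusted p = 0.00844).

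Sod1, the cytosolic dismutase, had values of 5.71, 5.87, 5.96 and 5.93 on the NiO arrays at 3 days, against 5.54, 5.62 and 5.59 on the control arrays. The groups did not overlap. The rise of 0.28 (SE 0.09, adjusted p = 0.0387) was the smallest of the 4 and was called in 2 of 16 other settings, with adjusted p-values up to 0.243. Leaving out any control array ended the call (adjusted p = 0.128, 0.072 and 0.0938), as did leaving out NiO array 2, 3 or 4 (adjusted p = 0.0796, 0.107 and 0.0715) or both arrays 2 and 3 (0.23, adjusted p = 0.243). The log2 ratio of Sod1 in the authors' deposited table was 0.07. The other Sod1 probe gave 0.13 (SE 0.10, adjusted p = 0.344), with overlapping groups.

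The remaining 4 genes were not called at 3 days after NiO. Sod3, the extracellular dismutase, had a log2 fold of -0.01 (95% interval -0.41 to 0.39), with 4.10 on NiO array 1 and 4.67 to 4.91 on the other NiO arrays, against 4.46 to 4.90 in controls. Gpx1, the main cytosolic glutathione peroxidase, had a fold of 0.08 (-0.20 to 0.35), and Prdx6, which also acts on oxidised phospholipid and has phospholipase activity in lung, one of -0.20 (-0.57 to 0.16). Gpx3, the secreted glutathione peroxidase, had values of 2.46, 0.86, 1.15 and 1.44 on the NiO arrays, against 1.92, 2.33 and 1.97 on the control arrays. NiO array 1 lay above every control and the other 3 below every control. The log2 fold was -0.60 (SE 0.33, adjusted p = 0.205) over all 4 NiO arrays, -0.93 (adjusted p = 0.0165) without NiO array 1 and -0.13 (adjusted p = 0.9) without NiO arrays 2 and 3.

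**Figure D1:**
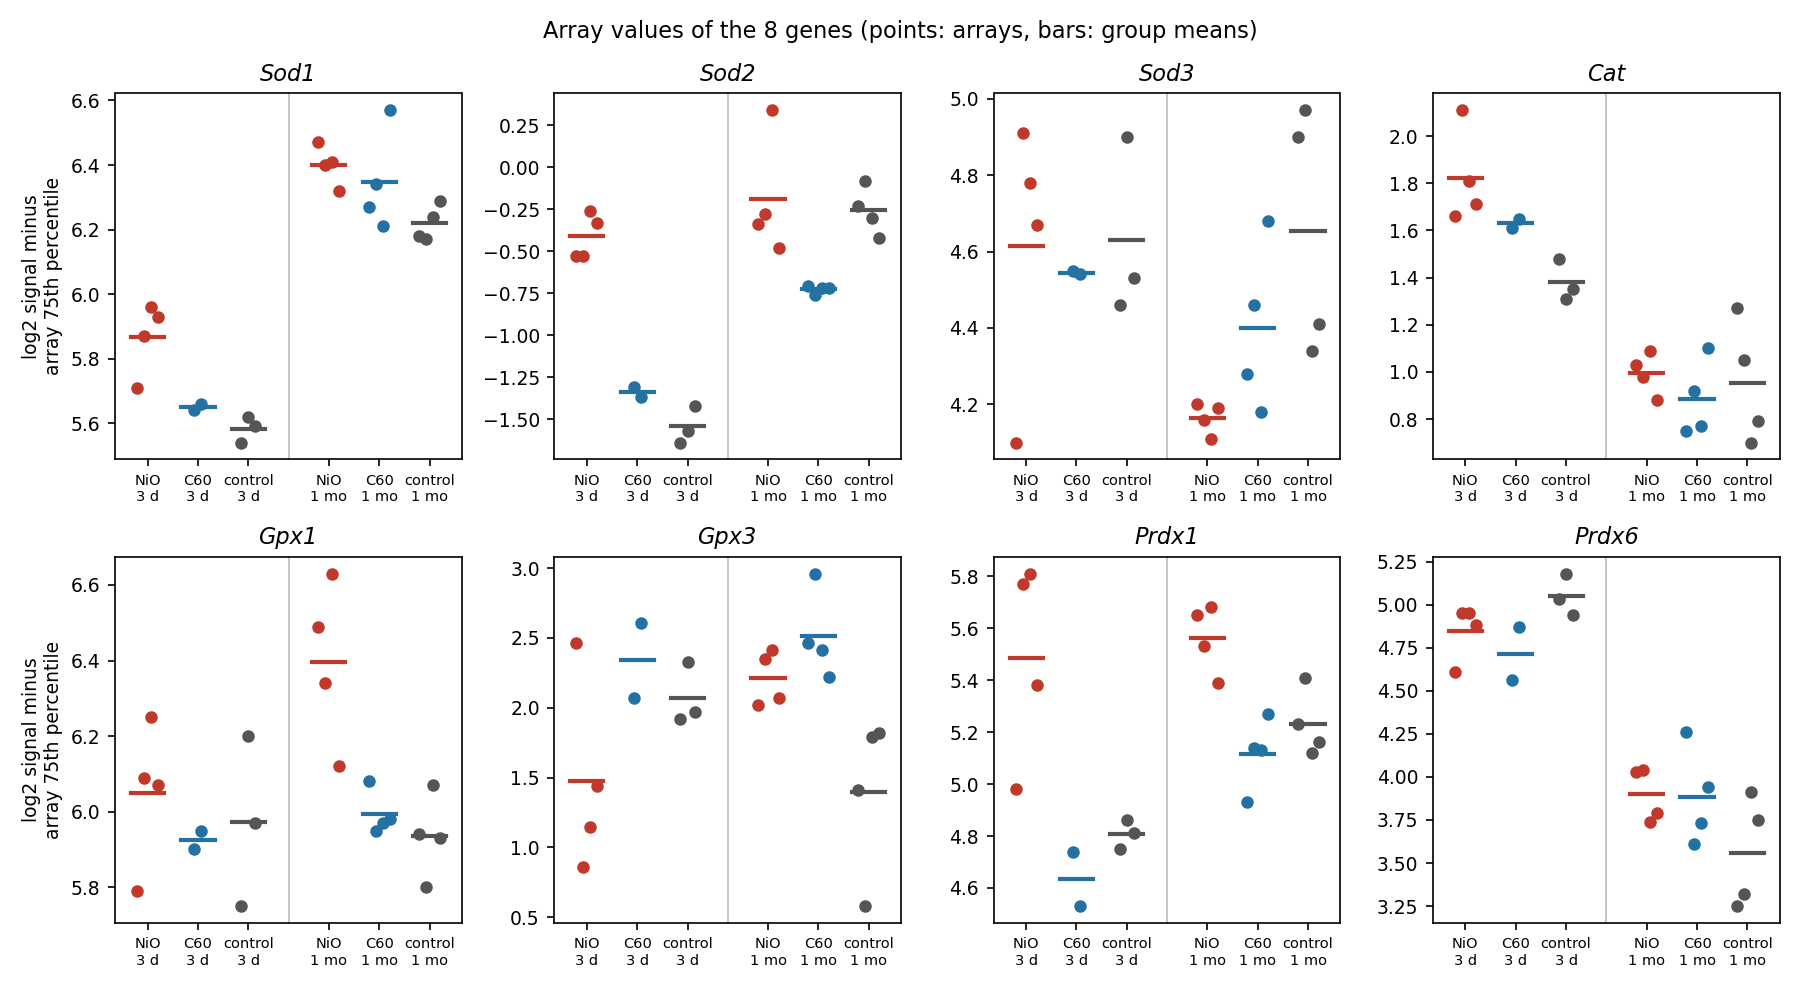
Log2 signal minus the array's 75th percentile (vertical axis) of the 8 genes in NiO, C60 and control lungs at 3 days and at 1 month. Points are arrays and bars are group means. Sod2 lay between -0.53 and -0.26 in NiO lungs at 3 days, against -1.64 to -1.42 in controls, and NiO array 1 was the highest of its group for Gpx3 and the lowest for Prdx1.

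At 1 month after NiO, 1 of the 8 genes rose (Gpx1) and 1 fell (Sod3), where 30.8 percent of all features were called. NiO and control arrays did not overlap for 4 of the 8 genes, beside 37.2 percent of all features. The median feature had a log2 fold of -0.12 in this comparison and 0.02 after quantile normalization. Log2 ratios in the authors' deposited table, whose centring is unknown, differed from the folds given here by a median of 0.33 for NiO and 0.30 for C60 at 1 month, and of -0.19 for NiO and -0.03 for C60 at 3 days. Gpx1 had values of 6.49, 6.34, 6.63 and 6.12 on the NiO arrays, against 5.94, 5.80, 6.07 and 5.93 on the control arrays. The groups did not overlap, and NiO array 4 was closest to the controls. The rise was 0.46 log2 units (SE 0.12, adjusted p = 0.011), or 0.58 above the median feature, and 0.44 after quantile normalization. The authors' deposited table had 0.85 on the log2 scale. Its other probe gave 0.67 (SE 0.12, adjusted p = 0.00127). The call held in 17 of 18 other settings; without arrays 1 and 2 of the 1-month controls the fold was 0.39 (adjusted p = 0.0793).

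Sod3 had values of 4.20, 4.16, 4.11 and 4.19 on the NiO arrays at 1 month, against 4.90, 4.97, 4.34 and 4.41 on the control arrays. The NiO lungs were tightly grouped and lay below all controls, while the controls split into arrays 1 and 2 and arrays 3 and 4. NiO minus control was -0.49 (SE 0.18, adjusted p = 0.0427), or -0.37 against the median feature, and it was called in 10 of 18 other settings. Its log2 ratio in the authors' deposited table was -0.19. Without control arrays 1 and 2 the fold was -0.21 (adjusted p = 0.481), and without either of them alone the call was also lost (adjusted p = 0.112 and 0.142). Leaving out any 1 of the 4 NiO arrays ended the call too, with adjusted p-values of 0.0685 to 0.091. Cells of the vessel wall are a known source of Sod3. Of 14 endothelial markers 1 rose and 3 fell (0 and 1 after quantile normalization), and their mean log2 value was 1.77 to 1.89 in NiO lungs, against 1.75 to 1.97 in control lungs. None of 8 smooth muscle markers was called, with means of 0.03 to 0.27 in NiO lungs, against -0.43 to 0.28 in control lungs. Of 12 fibroblast markers 0 rose and 4 fell, with means of 2.21 to 2.53 in NiO lungs, against 2.20 to 2.55 in control lungs. Col1a1 and Lum, among these 4, were uncalled with normexp background correction. The part of these cell types in the Sod3 value was not tested.

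Sod2 was no longer called against control at 1 month after NiO. Its values were -0.34, -0.28, 0.34 and -0.48 on the NiO arrays, against -0.23, -0.08, -0.30 and -0.42 on the control arrays, which overlapped. The log2 fold was 0.07 (95% interval -0.22 to 0.36). Prdx1 had 5.65, 5.53, 5.68 and 5.39 on the NiO arrays, against 5.23, 5.41, 5.12 and 5.16 on the control arrays. NiO array 4 lay just under control array 2, and the fold of 0.33 (SE 0.15, adjusted p = 0.0914) was called in 3 of 18 other settings. Gpx3 had 2.02, 2.35, 2.41 and 2.07 on the NiO arrays, against 1.41, 0.58, 1.79 and 1.82 on the control arrays. The groups did not overlap, the fold was 0.81 (SE 0.31, adjusted p = 0.0515), and 6 of 18 other settings called it, with values over all settings from 0.41 to 1.22. It was called without control array 3 (0.94, adjusted p = 0.0407), without control array 4 (0.96, adjusted p = 0.0383) and without both (1.22, adjusted p = 0.0179). It was 0.54 (adjusted p = 0.196) without control array 2 and 0.41 (adjusted p = 0.425) without control arrays 1 and 2. Prdx6 had a fold of 0.34 (adjusted p = 0.114), Sod1 one of 0.18 (adjusted p = 0.114) and Cat one of 0.04 (adjusted p = 0.835). For Prdx6 the fold was 0.46 and called without control array 3 (adjusted p = 0.0419) and 0.62 without control arrays 3 and 4 (adjusted p = 0.0132), but 0.07 without control arrays 1 and 2 (adjusted p = 0.828).

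The difference between the times was tested itself, as the NiO effect at 1 month minus that at 3 days, and 37.5 percent of all features were called in it, with a median of -0.18 (0.03 after quantile normalization). Of the 8 genes, 1 was called lower and 1 higher. For Sod2 the effect was smaller at 1 month by 1.06 log2 units (log2 value -1.06, SE 0.20, adjusted p = 0.00204; -0.88 against the median feature), and all 26 other settings called it. For Gpx3 the difference was 1.41 (SE 0.45, adjusted p = 0.0224), and 22 of 26 other settings called it. The Gpx3 call was lost without NiO array 2 of the 3-day slide (1.21, adjusted p = 0.0501), without control array 2 of the 3-day slide (1.28, adjusted p = 0.0539), without NiO arrays 2 and 3 of the 3-day slide (0.94, adjusted p = 0.149) and without arrays 1 and 2 of the 1-month controls (1.01, adjusted p = 0.0949). The other 6 genes were not called, with adjusted p-values of 0.0784 for Prdx6 to 0.51 for Sod1, although the second Gpx1 probe was (0.49, adjusted p = 0.0394). Single arrays moved some of these past the threshold. Without NiO array 1 of the 3-day slide, Prdx1 (-0.51, adjusted p = 0.0182), Sod3 (-0.65, adjusted p = 0.0226) and Cat (-0.46, adjusted p = 0.0487) were called lower. Without array 3 of the 1-month controls, Prdx6 (0.66, adjusted p = 0.0316) and Cat (-0.49, adjusted p = 0.0406) were called, and without NiO array 4 of the 1-month slide, Gpx1 was (0.47, adjusted p = 0.044), as it was after quantile normalization (0.47, adjusted p = 0.0223). Without arrays 3 and 4 of the 1-month controls, Prdx6 (0.82, adjusted p = 0.0108), Cat (-0.62, adjusted p = 0.0131) and Sod3 (-0.76, adjusted p = 0.0262) were called.

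For Sod2, both group means were higher at 1 month than at 3 days, but the NiO values of the times overlapped and their difference was not tested. The NiO mean was -0.19 ± 0.36 at 1 month and -0.41 ± 0.14 at 3 days (SD, n = 4 each). The control mean was -0.26 ± 0.14 at 1 month (SD, n = 4) and -1.55 ± 0.11 at 3 days (SD, n = 3). The tested difference of -1.06 is the amount by which the control lungs differed more between the times than the NiO lungs did.

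**Figure D2:**
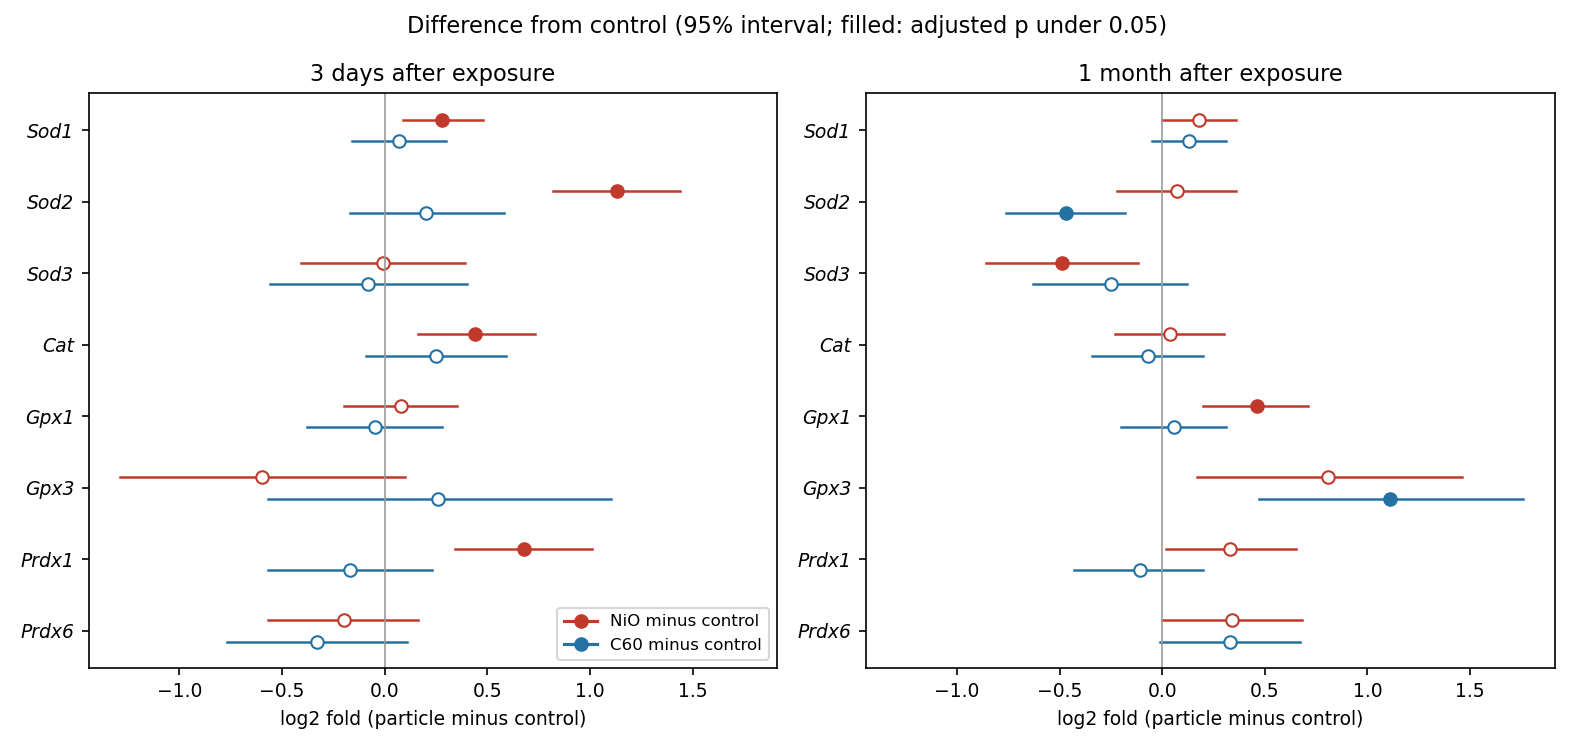
Log2 folds of NiO minus control and C60 minus control for the 8 genes at 3 days (left) and at 1 month (right). Lines are 95% intervals of the limma fit, and filled points have an adjusted p under 0.05. Sod2 after NiO lay at 1.13 at 3 days and at 0.07 at 1 month.

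After C60, none of the 8 genes was called at 3 days, in a comparison in which 4.93 percent of all features were called. With limma, 0 of the 8 had an unadjusted p under 0.05 either, beside 17.5 percent of all features. Only 2 arrays stood for C60 at 3 days, and the 95% intervals reached 0.58 for Sod2 (fold 0.20, from -0.17), 0.59 for Cat (0.25, from -0.09), 0.23 for Prdx1 (-0.17, from -0.57) and 1.10 for Gpx3 (0.26, from -0.57). Rises of the size seen for Sod2 and Prdx1 after NiO lay outside these intervals. Sod2 had -1.31 and -1.37 on the C60 arrays, against -1.64, -1.57 and -1.42 on the control arrays, and Prdx1 had 4.74 and 4.53, against 4.75, 4.86 and 4.81. The groups did not overlap for either gene, but the nearest C60 and control values lay close together in both. Groups did not overlap for 5 of the 8 genes here, beside 45.1 percent of all features. With all 4 C60 arrays none of the 8 was called either, and Prdx6 came nearest (-0.50, adjusted p = 0.0698).

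At 1 month after C60, 1 of the 8 genes rose (Gpx3) and 1 fell (Sod2), where 19.7 percent of all features were called and the median feature had -0.09 (0.04 after quantile normalization). C60 and control arrays did not overlap for 2 of the 8 genes, beside 27.6 percent of all features. Gpx3 had values of 2.46, 2.96, 2.41 and 2.22 on the C60 arrays, against 1.41, 0.58, 1.79 and 1.82 on the control arrays. All C60 lungs lay above all controls, and control array 2 was the lowest by a wide margin. The rise was 1.11 log2 units (SE 0.31, adjusted p = 0.0198), 2.16-fold, and it was called in 15 of 18 other settings. It was 0.84 and not called without control array 2 (adjusted p = 0.0732), 0.96 and not called without C60 array 2 (adjusted p = 0.0659), and 0.71 without control arrays 1 and 2 (adjusted p = 0.183). Fat cells are a known source of Gpx3. The mean log2 value of 7 fat cell markers, a list added after the data were seen, ran from -1.15 to 0.45 in C60 lungs and from -1.01 to 0.28 in control lungs at 1 month. Among the controls it was lower on arrays 1 and 2 (-0.96 and -1.01) than on arrays 3 and 4 (0.24 and 0.28). It was lowest of all at 1 month on C60 array 1 (-1.15), where Gpx3 was 2.46, and its part in the Gpx3 value was not tested.

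Sod2 had values of -0.71, -0.76, -0.72 and -0.72 on the C60 arrays at 1 month, against -0.23, -0.08, -0.30 and -0.42 on the control arrays. The C60 lungs were nearly equal and all lay below the controls. The log2 fold was -0.47 (SE 0.14, adjusted p = 0.0246), or -0.38 against the median feature and -0.44 after quantile normalization (adjusted p = 0.034). In the authors' deposited table it was -0.17 on the log2 scale. It was called in 13 of 18 other settings, and lost without C60 array 1, 2 or 3 (adjusted p = 0.0525, 0.062 and 0.0518), without control array 2 (-0.41, adjusted p = 0.0796) and without control arrays 1 and 2 (-0.37, adjusted p = 0.17). The other 6 genes were not called, with folds from -0.25 for Sod3 to 0.33 for Prdx6, but both of these were without control arrays 3 and 4 (-0.54, adjusted p = 0.0487, and 0.60, adjusted p = 0.0183). In the difference of the C60 effect between the times, 10.4 percent of all features were called and 0 of the 8 genes with limma, while 2 had an unadjusted p under 0.05, beside 28.3 percent of all features. These were Sod2 (-0.68, SE 0.22, adjusted p = 0.0619) and Prdx6 (0.66, SE 0.26, adjusted p = 0.113). The second probes of Gpx1 (0.56, adjusted p = 0.0747) and Sod1 (0.39, adjusted p = 0.0925) also had an unadjusted p under 0.05 without being called. After C60 at 1 month these 2 probes stood at 0.30 (adjusted p = 0.0844) and 0.22 (adjusted p = 0.0812). Among the other settings, 4 of 23 called Sod2 and 2 of 23 called Prdx6, including for each the fit without arrays 3 and 4 of the 1-month controls (-0.78, adjusted p = 0.0408, and 0.93, adjusted p = 0.018).

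NiO was set against C60 at matched times, since both particles share their control lungs in the comparisons above. At 3 days 2 of the 8 genes were higher after NiO (Sod2 and Prdx1) and none lower, where 7.77 percent of all features were called. Sod2 was higher by 0.93 (SE 0.17, adjusted p = 0.00322), 1.91-fold, and 14 of 15 other settings called it, the exception being the fit of these 2 groups alone (adjusted p = 0.146). Prdx1 was higher by 0.85 (SE 0.18, adjusted p = 0.00948), 1.80-fold. That call was lost without C60 array 2 (0.74, adjusted p = 0.0966), without NiO arrays 2 and 3 (0.54, adjusted p = 0.0715) and in the fit of these groups alone (adjusted p = 0.377). For Gpx3, NiO minus C60 was -0.86 (SE 0.37, adjusted p = 0.151) and -1.19 (adjusted p = 0.0119) without NiO array 1, and for Sod1 it was 0.22 (adjusted p = 0.186) and 0.27 (adjusted p = 0.0499) without that array. With all 4 C60 arrays in place of 2, Sod1 was higher after NiO by 0.42 (adjusted p = 0.00993).

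At 1 month none of the 8 genes was called between NiO and C60, where 1.23 percent of all features were called; with limma, 3 had an unadjusted p under 0.05, beside 9.88 percent of all features. These were Sod2 (0.54, SE 0.14, adjusted p = 0.0658), Gpx1 (0.40, SE 0.12, adjusted p = 0.151) and Prdx1 (0.45, SE 0.15, adjusted p = 0.20). In each of the 3, all NiO arrays lay above all C60 arrays, and 12.5 percent of all features had groups that did not overlap in this comparison. For Sod2 the difference was called without NiO array 4 (0.64, adjusted p = 0.0292) and when only probes well above background on every array were tested (adjusted p = 0.0466). The 95% intervals ran from 0.25 to 0.83 for Sod2, from 0.14 to 0.65 for Gpx1 and from 0.14 to 0.76 for Prdx1, and included 0 for the other 5 genes.

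The 2 control groups were compared as well, 1 month minus 3 days, a comparison that mixes age, time out of the chamber, slide and scan day. Of the 8, 3 were higher at 1 month (Sod1, Sod2 and Prdx1) and 2 lower (Cat and Prdx6), where 46.0 percent of all features were called and the median feature had 0.19 (0.05 after quantile normalization). Sod2 had -0.23, -0.08, -0.30 and -0.42 on the 1-month control arrays, against -1.64, -1.57 and -1.42 on the 3-day ones. The groups lay far apart, with a log2 fold of 1.29 (SE 0.15, adjusted p = 4.82e-06), or 1.10 against the median feature. Sod1 was higher by 0.64 (SE 0.09, adjusted p = 4.07e-05), or 0.45 against the median feature, and its other probe by 0.44 (adjusted p = 0.00131).

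Prdx6 fell most: 3.25, 3.32, 3.91 and 3.75 on the 1-month control arrays, against 5.03, 5.18 and 4.94 on the 3-day ones. Arrays 1 and 2 of the 1-month controls were lower than arrays 3 and 4, and all 4 lay more than 1 log2 unit below the 3-day controls. The log2 fold was -1.49 (SE 0.17, adjusted p = 5.83e-06), 0.356-fold. LOC287416, annotated as similar to Prdx6, changed by -0.96 (SE 0.19, adjusted p = 0.000615), and signal of the copy and of Prdx6 may not be separable. Sod1, Sod2 and Prdx6 were called in all 17 other settings. Cat, at -0.43 (SE 0.14, adjusted p = 0.0171), was called in 13 of 17. It was lost without array 3 of the 1-month controls (-0.34, adjusted p = 0.0533), without array 1 of the 3-day controls (-0.38, adjusted p = 0.0713) and without arrays 3 and 4 of the 1-month controls (-0.22, adjusted p = 0.219).

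Prdx1, at 0.42 (SE 0.16, adjusted p = 0.038), was called in 9 of 17 other settings for this control comparison. It fell to 0.17 (adjusted p = 0.216) after quantile normalization, and leaving out any 1 of the 3-day control arrays (adjusted p = 0.104, 0.0646 and 0.0845) or array 1 or 2 of the 1-month controls (adjusted p = 0.0605 and 0.0955), or both (0.33, adjusted p = 0.183), ended the call. Gpx1, at -0.04 and not called, was -0.30 and called (adjusted p = 0.0297) after quantile normalization. Sod3 (0.03) and Gpx3 (-0.68, adjusted p = 0.102) were not called. Without arrays 3 and 4 of the 1-month controls Gpx3 was at -1.08 and called (adjusted p = 0.0279). Cell type markers differed between the control groups too. Of 14 endothelial markers 2 were higher and 7 lower at 1 month, of 9 alveolar type I markers 1 was higher and 5 lower, and of 8 smooth muscle markers 0 were higher and 4 lower. Of 14 alveolar type II markers 1 was higher and 2 were lower (0 and 5 after quantile normalization), with means of 4.02 to 4.15 in 1-month controls, against 4.40 to 4.45 in 3-day controls. Their part in the control differences was not tested.

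**Figure D3:**
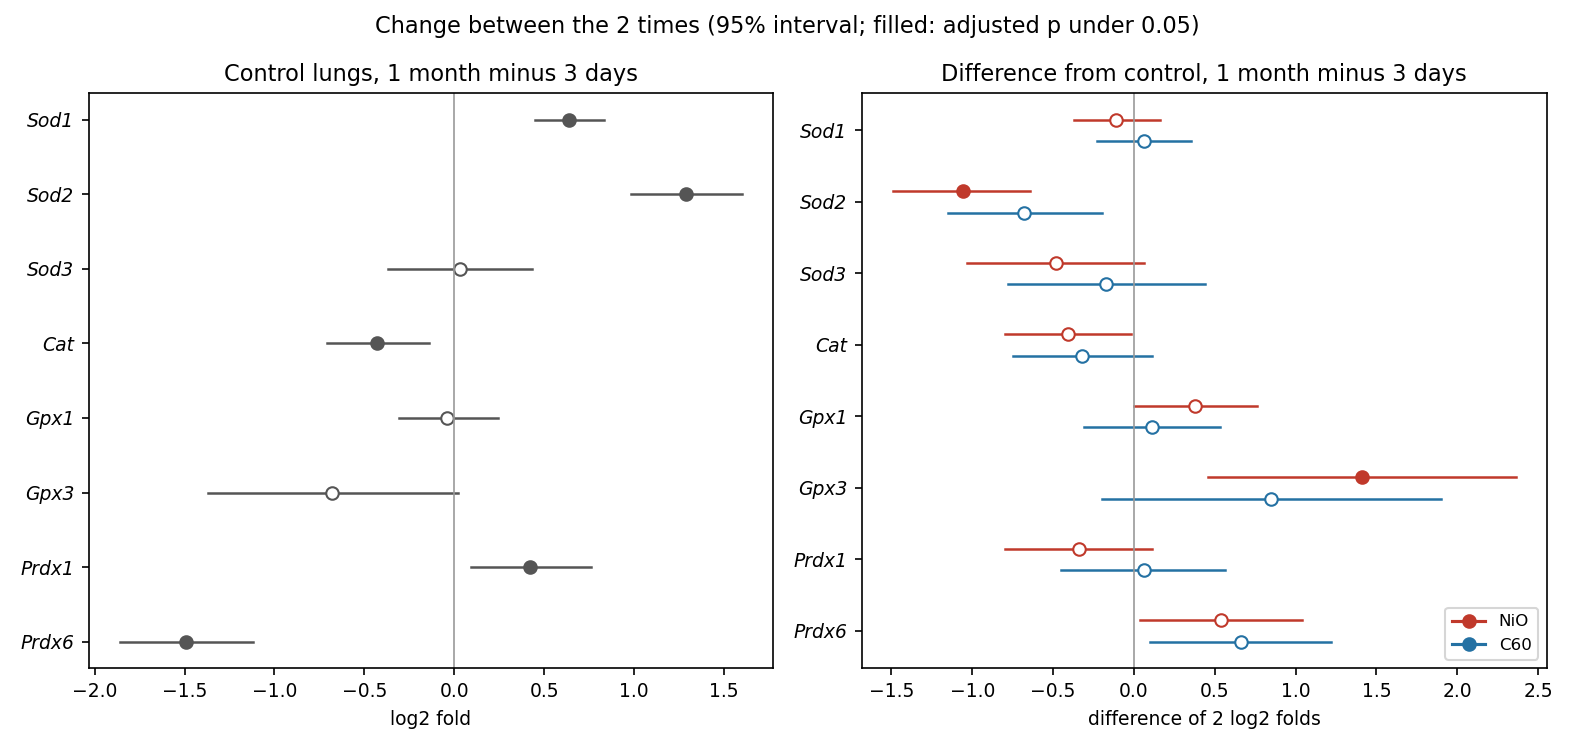
Left, log2 fold of each gene in control lungs, 1 month minus 3 days. Right, the NiO and C60 differences from control at 1 month minus those at 3 days. Lines are 95% intervals and filled points have an adjusted p under 0.05: Sod2 lay at 1.29 and Prdx6 at -1.49 in controls, while the NiO effect on Sod2 differed by -1.06 and that on Gpx3 by 1.41.

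The genes that work beside the 8 enzymes were described by lists. For NiO against control, 19.0 percent of all features were called at 3 days and 30.8 percent at 1 month. For C60 against control these shares were 4.93 and 19.7 percent. Of 585 called differences over all lists and comparisons, 489 stayed called after quantile normalization and none turned direction, while 495 stayed called and 2 turned direction with normexp background correction. Of 9 other glutathione peroxidases and peroxiredoxins measured (of 10), 3 rose and 0 fell at 3 days after NiO, with a median log2 fold of 0.09 beside 0.04 over all features. These were Prdx5, a peroxiredoxin of mitochondria and peroxisomes (0.68, adjusted p = 0.0122), Gpx8, an enzyme of the endoplasmic reticulum (0.60, adjusted p = 0.049; 0.0649 with normexp background correction), and Prdx2, the close relative of Prdx1 (0.39, adjusted p = 0.00711). At 1 month 2 rose and 2 fell. Prdx5 rose by 1.11 (SE 0.16, adjusted p = 0.000249) and Gpx4, which repairs lipid peroxides in membranes, by 0.32 (adjusted p = 0.0101), though by 0.13 and uncalled with normexp (adjusted p = 0.21). Gpx6 (-2.02, adjusted p = 0.0104) and Gpx8 (-0.56, adjusted p = 0.034) fell. Prdx5 was also higher after NiO than after C60, by 0.77 at 3 days (adjusted p = 0.0225; 0.0547 after quantile normalization) and by 0.87 at 1 month (adjusted p = 0.00829). After C60 none of the 9 was called at 3 days, while at 1 month Gpx4 rose by 0.30 (adjusted p = 0.0208; 0.648 with normexp) and Gpx6 fell, with a log2 fold of -2.92 (adjusted p = 0.00232).

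The same shares of all features (19.0 and 30.8 percent for NiO, 4.93 and 19.7 percent for C60) stand beside the next counts. Of 19 genes that keep these enzymes reduced, 4 rose and 1 fell at 3 days after NiO. Srxn1, the sulfiredoxin that repairs overoxidised peroxiredoxins, rose by 1.07 (SE 0.29, adjusted p = 0.0167; 0.51 and 0.0619 with normexp), the glutaredoxin gene Glrx3 by 0.67 (adjusted p = 0.000571), the thioredoxin gene Txn1 by 0.53 (adjusted p = 0.00462) and the thioredoxin reductase gene Txnrd1 by 0.44 (adjusted p = 0.00878). Sesn1, a stress-induced sestrin, fell (-0.38, adjusted p = 0.0126). At 1 month 7 rose and 1 fell, among them Txnrd3 (0.99, adjusted p = 0.00179), Sesn2 (0.94, adjusted p = 0.0478) and Txn1 (0.80, adjusted p = 0.000129). The call that fell was Gclm, the modifier subunit of glutamate-cysteine ligase in glutathione synthesis, at -2.03 (adjusted p = 0.000353). It was measured above background on 2 of 4 NiO arrays and all 4 control arrays. Gclm passed the filter on dim probes only through these 1-month controls. The filter therefore favoured a fall against them, after NiO and after C60. After C60 at 1 month 5 rose and 2 fell, among them Txnrd3 (0.67), Txnrd2 (0.46; adjusted p = 0.0917 with normexp) and Txn2 (0.42), with Txnip at -0.55 and Gclm at least 3.62-fold lower (adjusted p = 0.001). No C60 array measured Gclm well above background. With normexp its log2 fold was only -0.38 and not called (adjusted p = 0.115), so the bound of 3.62-fold holds only for the processed signal. At 3 days after C60 the 1 call was also Gclm, but as a rise. Gclm was not well above background in either group there, so that no size is given. With normexp that rise was not called (adjusted p = 0.126).

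**Figure D4:**
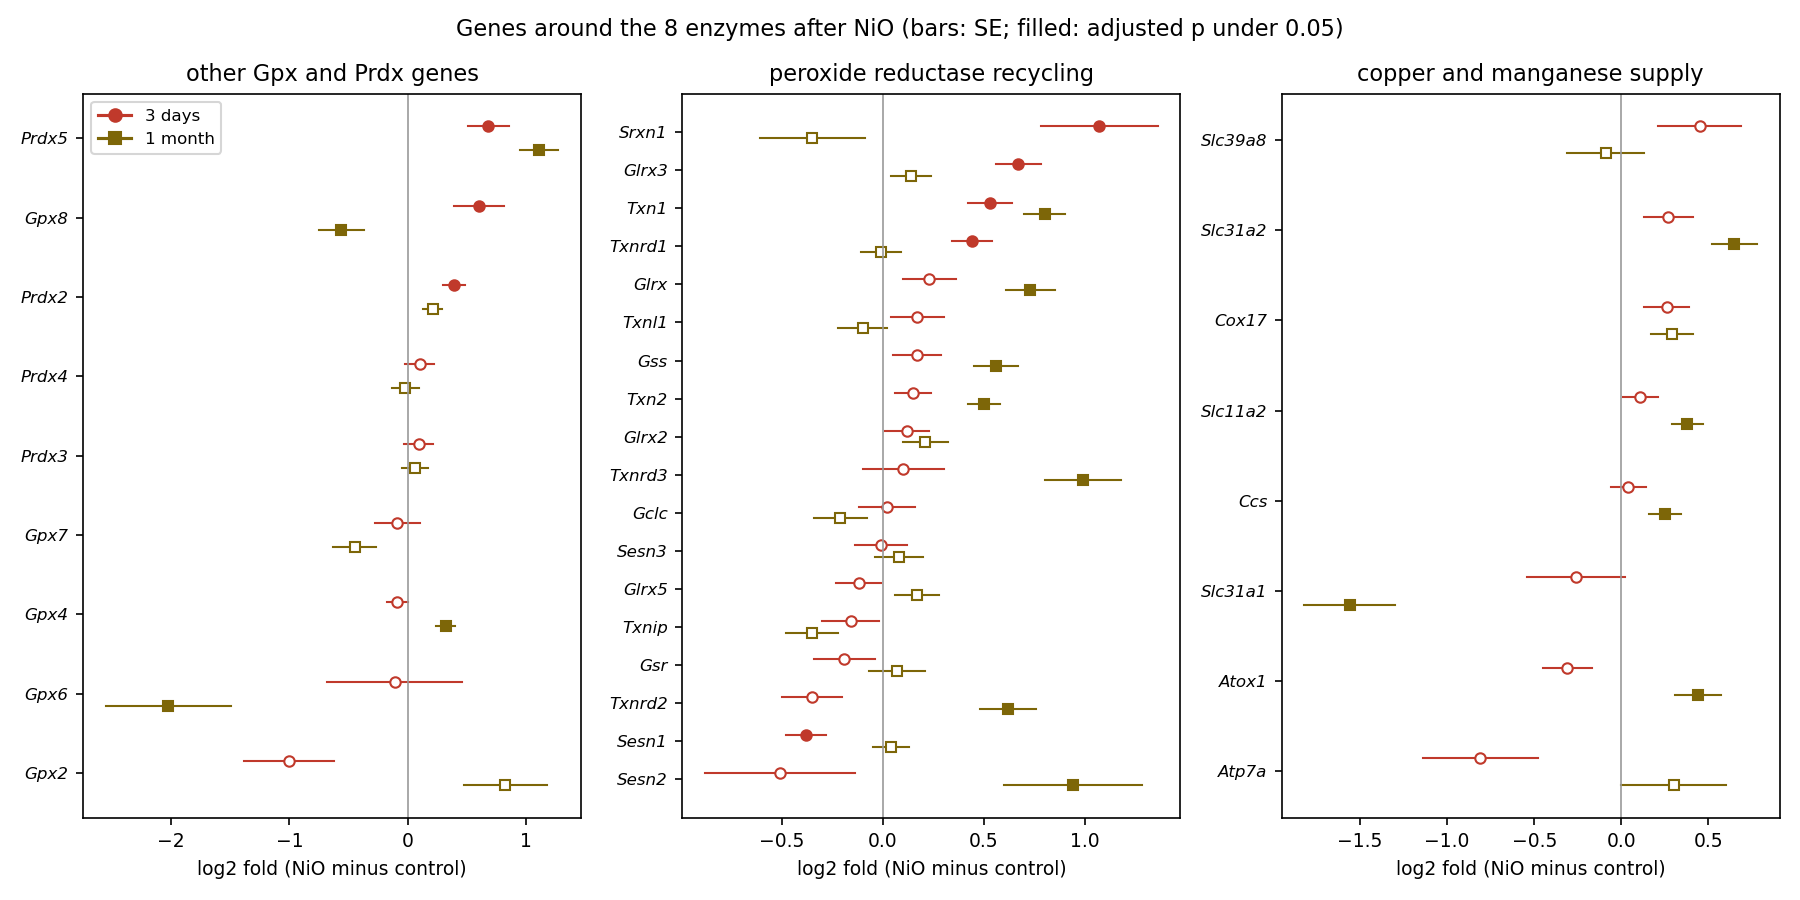
Log2 fold of NiO minus control at 3 days (circles) and at 1 month (squares) for other glutathione peroxidase and peroxiredoxin genes, for genes of peroxide reductase recycling and for copper and manganese supply. Bars are standard errors, filled points have an adjusted p under 0.05, and Gclm and Atp7b, which were dim in some groups, are left out. Prdx5 lay at 0.68 at 3 days and 1.11 at 1 month.

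Sod1 and Sod3 need copper and Sod2 needs manganese. Among all features, 19.0 percent were called after NiO at 3 days, 30.8 percent at 1 month, and 19.7 percent after C60 at 1 month. Of 9 copper and manganese supply genes measured, 0 rose and 1 fell at 3 days after NiO: Atp7b, a copper pump, at -1.34 (adjusted p = 0.0244). Only 1 of 4 NiO arrays and 2 of 3 control arrays measured it above background, and with normexp it stood at 0.06 (adjusted p = 0.776). At 1 month after NiO 4 rose and 1 fell. The copper chaperone of Sod1, Ccs, rose by 0.25 (adjusted p = 0.0414), the chaperone Atox1 by 0.44 (adjusted p = 0.0207; 0.0557 after quantile normalization), the copper transporter Slc31a2 by 0.65 (adjusted p = 0.00191) and the metal importer Slc11a2 by 0.38 (adjusted p = 0.00802). The copper importer Slc31a1 fell by 1.56 on the log2 scale (adjusted p = 0.000751). It was also lower after C60 at 1 month, at -1.57 (adjusted p = 0.00132), the 1 call of the 9 in that comparison, and these comparisons share their control arrays. Of 21 genes for selenoproteins or for the selenium supply that Gpx1 and Gpx3 need, 1 rose and 0 fell at 3 days after NiO (the receptor gene Lrp2, 0.65). At 1 month after NiO 2 of these rose and 1 fell (Selenoo 0.91, Selenof 0.24, with an adjusted p of 0.0671 after quantile normalization, and Lrp8 -1.33).

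Genes that make superoxide or peroxide were called too, beside 19.0 percent of all features after NiO at 3 days and 30.8 percent at 1 month. After C60 these shares were 4.93 and 19.7 percent. Of 19 measured, 6 rose and 0 fell at 3 days after NiO, with a median of 0.15 beside 0.04 over all features. Noxo1, an organizer of an NADPH oxidase, rose by 2.83 (SE 0.32, adjusted p = 1.94e-05), the dual oxidase Duox1 by 1.45 (adjusted p = 0.00338) and its maturation factor Duoxa1 by 1.43 (adjusted p = 0.000247). At 1 month 8 rose and 5 fell, with Duoxa1 at 1.24, Duox1 at 1.18 and Noxo1 at 1.17, and with the endothelial and fibroblast oxidase gene Nox4 at -0.79 (adjusted p = 0.005), which was not called after quantile normalization (-0.42, adjusted p = 0.209). After C60 the calls were 1 rise at 3 days (Xdh, xanthine dehydrogenase, 1.59, adjusted p = 0.00185) and 1 rise and 2 falls at 1 month (Nos3 at 0.97, Maob at -0.61 and Lpo at -1.63, the last uncalled with normexp, adjusted p = 0.0992).

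The lists of NF-kB and Nrf2 target genes were set beside Sod2 and Prdx1. Among all features, 19.0 percent were called after NiO at 3 days and 30.8 percent at 1 month. Of 20 NF-kB targets measured, 8 rose and 2 fell at 3 days after NiO, with a median of 0.45 beside 0.04 over all features. The chemokine genes Cxcl2 (3.34, adjusted p = 8.64e-06), Cxcl1 (2.82, adjusted p = 9.33e-06) and Ccl2 (2.53, adjusted p = 1.38e-05) rose most, while the inhibitor gene Nfkbia fell by 0.92 on the log2 scale (adjusted p = 0.00546). At 1 month 6 rose and 2 fell, with a median of 0.20 beside -0.12. Of 24 Nrf2 targets, 8 rose and 3 fell at 3 days. Akr1b8, an aldehyde reductase, rose by 1.75 (adjusted p = 0.000232) and the heme oxygenase gene Hmox1 by 1.5 (adjusted p = 1.35e-06), while Osgin1 (-1.51), the quinone reductase gene Nqo1 (-0.49, adjusted p = 0.00901) and Gstp1 (-0.48) fell. At 1 month 6 rose, with Akr1b8 at 1.48 and Hmox1 at 1.33, and 1 fell. That 1 was Gclm, whose fall the filter favoured as described above. Both lists hold genes that other pathways control, and neither median was tested.

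Markers of several other cell types moved with the NiO groups, where 19.0 percent of all features were called at 3 days and 30.8 percent at 1 month. Of 15 recruited macrophage markers, 8 rose and 0 fell at 3 days and 7 rose and 0 fell at 1 month. Their mean log2 value was 2.30 to 2.43 in NiO lungs against 1.38 to 1.59 in control lungs at 3 days, and 1.97 to 2.46 in NiO lungs against 1.51 to 1.67 in control lungs at 1 month. Of 10 alveolar macrophage markers, 4 rose at 3 days and 5 at 1 month and none fell, with means of 1.62 to 1.91 in NiO lungs against 0.66 to 0.95 in control lungs at 3 days, and 1.79 to 2.55 in NiO lungs against 1.02 to 1.42 in control lungs at 1 month. At 3 days after NiO, 7 of 14 endothelial markers fell and none rose (means of 1.76 to 2.13 in NiO lungs against 2.33 to 2.42 in control lungs). Of 9 alveolar type I markers 1 rose and 3 fell at 3 days (means of 4.58 to 4.63 in NiO lungs against 4.78 to 4.86 in control lungs), and 3 of 8 smooth muscle markers fell. Of 14 alveolar type II markers 6 rose and none fell at 1 month, with means of 4.40 to 4.67 in NiO lungs against 4.02 to 4.15 in control lungs. Of 11 neutrophil markers 2 rose and none fell at 3 days, near the share of all features, with a median log2 fold of -0.13 beside 0.04 over all features. Their mean log2 value nevertheless lay higher at 3 days, at -0.42 to -0.12 in NiO lungs against -0.94 to -0.66 in control lungs. At 1 month 2 of them rose and 1 fell, with a median of 0.25 beside -0.12. Their means then overlapped, at -0.95 to 0.04 in NiO lungs against -1.21 to -0.72 in control lungs. The part of all these cell types in the values of Sod2, Prdx1, Cat, Sod1 and Gpx1 was not tested. After quantile normalization 1 alveolar macrophage marker was called lower at 3 days. After C60 none of the 15 recruited macrophage markers was called at either time (1 at 3 days with normexp).

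Across the 21 arrays the 8 genes did not move as a block. Pearson correlations between pairs, given as a description over arrays that share their groups and slides, ran from -0.79 (Sod1 with Prdx6) to 0.80 (Sod2 with Prdx1). Cat and Prdx6 had 0.72, Sod1 and Sod2 0.71, and Sod3 and Gpx3 -0.65. Among all named genes, those most like Sod2 were Ttk (0.954), Nuf2 (0.934) and C3h15orf48 (0.933). Those most like Prdx1 were its copy LOC683813 (0.995), Pak1ip1 (0.941) and Tkt (0.92), and those most like Prdx6 its copy LOC287416 (0.966), Prcc (0.943) and Thrap3 (0.923). For Sod1 they were Mrpl32 (0.979), LOC684304 (0.977) and Dnttip1 (0.975), and for Cat Atp5f1a (0.949), Arl8b (0.936) and Loc266761 (0.936). Gpx3 was most like Pltp (0.968), S1pr4 (0.935) and Ramp2 (0.933), and Sod3 most like LOC314964 (0.956), Mpdz (0.943) and Hnrnpm (0.939). Gpx1 had the weakest partners, Fbxo28 (0.874), Lbp (0.849) and LOC500904 (0.821).

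Over all comparisons the 8 genes gave 17 called differences, and none of the 17 turned direction in any other setting. Of these, 5 were called in every setting run for them: Sod2 after NiO at 3 days, the change of that effect with time, and Sod1, Sod2 and Prdx6 between the control groups. Slide means were not among those settings. They were fitted only to the mean of both times, where 0 of the 8 genes were called.

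**Figure D5:**
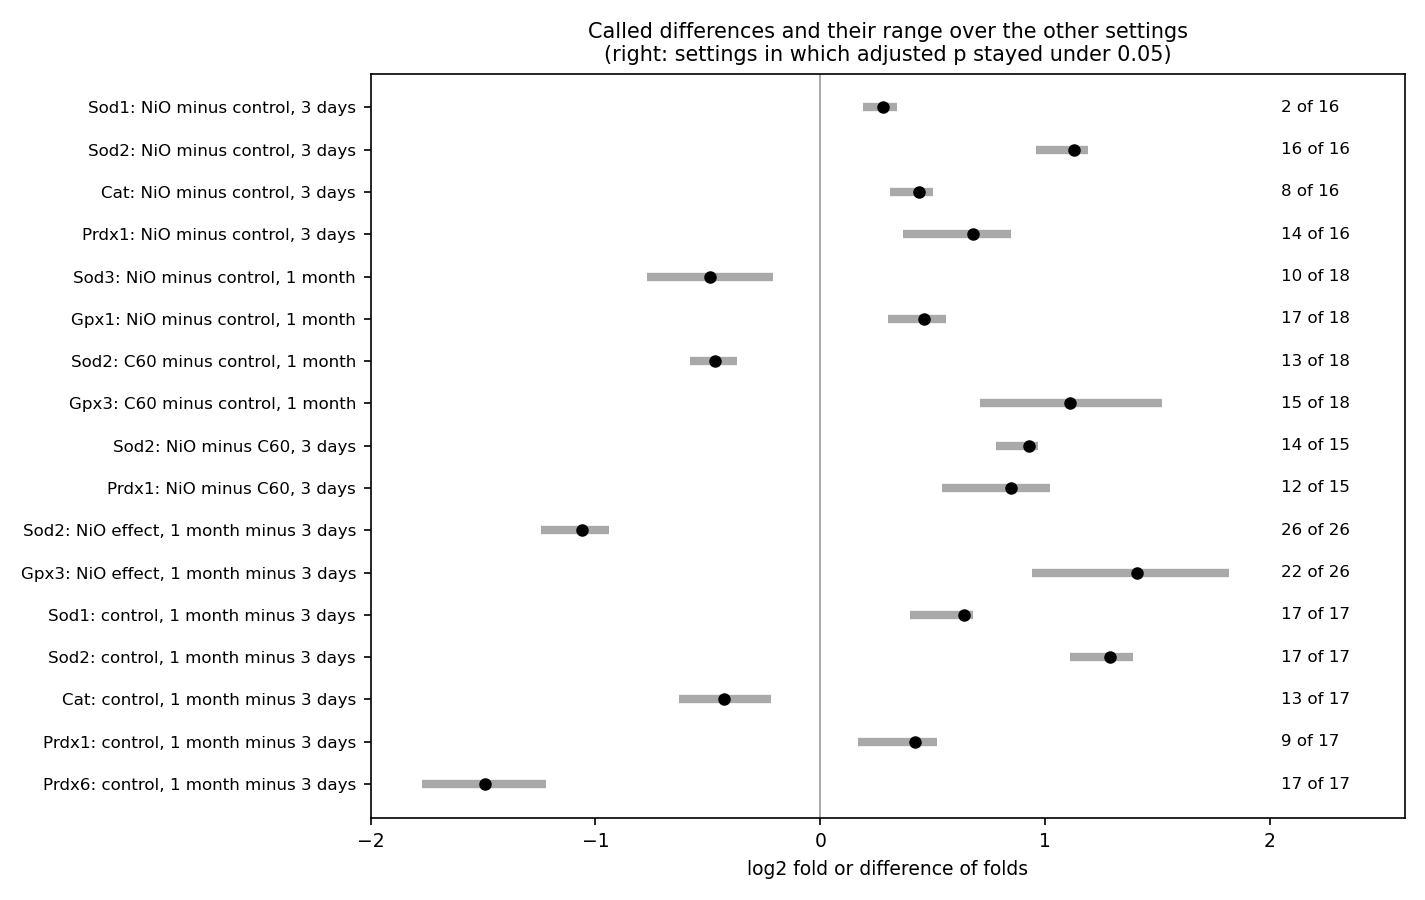
Each of the 17 called differences (black points, log2 fold or difference of folds) with its range over the other settings (grey bars) and, at the right, the number of those settings in which the adjusted p stayed under 0.05. Sod2 after NiO at 3 days kept its call in 16 of 16 and Sod1 in 2 of 16.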

How the data were processed

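The scanner files held 23 arrays of right lung RNA in 6 groups. Feature Extraction 9.5.3.1 (protocol GE1-v5_95_Feb07, probe grid of rat build rn4) made the deposited processed intensity values, which are corrected for background and for a spatial trend, per the file headers. The authors also deposited a linear ratio per probe and group; how it was made was not stated, and its centring is unknown. The geometric mean of C60 arrays 1 and 2 matched the deposited 3-day C60 ratio (median absolute log2 difference 0.00082, 0.109 for all 4 arrays) and the label gives n = 2, so these 2 were used, which left 21 arrays.

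Control spots were left out and spots of 1 probe averaged. Log2 intensity minus the array's 75th percentile was fitted with limma 3.58.1 (lmFit and eBayes, R 4.3.3) in 1 fit over 6 groups (15 residual and 2.31 prior degrees of freedom), with Benjamini-Hochberg adjustment over 24985 features. Probes had to be well above background on all arrays of any 1 group (28678 of 41012 were kept), and the brightest kept probe stood for a gene; other probes of the 8 genes come from a fit over all kept probes. Probe names were updated through GRCr8 gene tables. Each particle was compared with control and NiO with C60, together with the change of each effect with time, and control against control. P-values measure the spread between arrays, whose number limits the precision. Replicate numbers are array positions and pair nothing.

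Named genes were all 8 enzymes in every comparison, the 3 named genes most correlated with each, and up to 3 called genes in each direction of each list. The enzymes and the gene lists were chosen with earlier results of these data known, and fat cell markers were added later. Alternatives were normexp background correction (offset 50), quantile normalization, other filters, all 4 C60 arrays, fits of the compared groups only, array position as a block, the mean of a gene's probes, slide means, each array left out, and, added after seeing the data, arrays 1 and 2 or 3 and 4 of the 1-month controls and arrays 2 and 3 of the 3-day NiO slide left out. The fit was tested on simulated data. Promoters were read from a RefSeq table of GRCr8.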

Additional observations from a re-analysis of the deposited data

Results flagged for a closer look

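The effect of NiO differed between the times for 2 of the 8 genes, by a test of the difference itself in the limma fit of all 6 groups. For Sod2 the NiO effect was 0.07 at 1 month and 1.13 at 3 days, a difference of -1.06 (adjusted p = 0.00204), and the control mean itself differed by 1.29 between the times. For Gpx3 the NiO effect was 0.81 at 1 month and -0.60 at 3 days, a difference of 1.41 (adjusted p = 0.0224), and neither single effect was called. No array of the 8 genes stood apart from the other 3 of its group by Dixon's criterion, which was applied to 32 groups of 4 arrays and marks about 1 group in 20 by chance.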

How the results depend on the processing

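None of the 17 called differences of the 8 genes turned direction in any setting. Over all settings 1190 results of single genes kept their direction and, where a test was run, their side of the threshold. Another 37 passed the threshold only in the alternative, and 64 no longer passed it. The other 53 were uncalled differences of single genes that turned direction. The cause of these changes was not tested. Counts of all features called moved most for NiO minus C60 at 3 days, to 5955 with all 4 C60 arrays, 48 in a fit of these groups alone, 1064 with normexp, 1260 with only probes well above background on every array and 747 without arrays 2 and 3 of NiO at 3 days (1941 in the report). NiO minus control at 3 days gave 801 in the fit of these groups alone and 1580 without those NiO arrays (4737), and the change of the NiO effect gave 3954 without them (9375). C60 minus control gave 2965 with all 4 C60 arrays and 654 in the fit of these groups alone at 3 days (1231), and 3017 in that fit at 1 month (4929). The change of the C60 effect gave 5652 with all 4 C60 arrays, 1467 with normexp, 4245 without arrays 1 and 2 and 4585 without arrays 3 and 4 of the 1-month controls (2604), and NiO minus C60 at 1 month gave 198 with no filter on dim probes (307).

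Of the 8 genes, NiO minus control at 3 days called 1 in the fit of these groups alone, 1 without NiO arrays 2 and 3 and 2 with no filter (4 in the report). At 1 month it called 1 with no filter, 4 with normexp, 0 without control arrays 1 and 2 and 4 without control arrays 3 and 4 (2). C60 minus control at 1 month called 0 and 4 without those control pairs (2). NiO minus C60 called 0 in the fit of these groups alone and 1 without NiO arrays 2 and 3 at 3 days (2), and 1 with the stricter filter at 1 month (0). The change of the NiO effect called 1 without control arrays 1 and 2, 5 without control arrays 3 and 4 and 1 without NiO arrays 2 and 3 (2). The change of the C60 effect called 2 with all 4 C60 arrays, 1 with array position as a block, 1 in the fit of the compared groups and 2 without control arrays 3 and 4 (0).

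With each array left out in turn, features called ranged from 2223 to 9626 for NiO and from 735 to 904 for C60 against control at 3 days, from 5255 to 7524 and from 2466 to 5130 at 1 month, from 572 to 7137 for NiO minus C60 at 3 days and from 135 to 343 at 1 month, from 7160 to 13073 for the change of the NiO effect, from 1303 to 3205 for that of the C60 effect and from 9181 to 11435 between controls. Of the 8 genes the calls ranged from 2 to 5 for NiO at 3 days, from 1 to 4 for NiO at 1 month, from 0 to 2 for C60 at 1 month, from 1 to 4 for NiO minus C60 at 3 days, from 0 to 1 at 1 month, from 1 to 5 for the change of the NiO effect and from 3 to 5 between controls. With slide means as the unit, limma called 0 features and 0 of the 8 genes for either particle over both times, against 3 of the 8 for NiO in the fit over arrays. At an unadjusted p under 0.05, slide means called 1017 features for NiO and 687 for C60 and 0 of the 8 genes for either, with 2 residual degrees of freedom. Quantile normalization moved the share of calls that were higher to 45.8 percent from the 58.5 percent of the report for NiO at 3 days, to 55.4 from 38.7 for NiO and to 55.4 from 36.9 for C60 at 1 month, to 52 from 65 for NiO minus C60 at 3 days, to 59.9 from 38.5 for the change of the NiO effect, to 51.9 from 40.6 for that of the C60 effect and to 49.3 from 60.2 between controls. No paired analysis was possible because the replicate numbers are array positions on slides that each hold 1 group. The number of arrays, 2 for C60 at 3 days, limits the precision.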
